A study of Mus musculus with 10 samples.

Results

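Transcripts of 10 genes for collagen chains and other products of fibroblasts were followed in sorted tumour macrophages: Col1a1, Col1a2, Col3a1, Col5a1, Col5a2, Col6a1, Mfap5, Dcn, Pdgfra and Sparc. They were taken by symbol from 55359 gene identifiers, and all 10 were among the 14374 genes with enough counts to be tested. F4/80 positive cells had been sorted by flow cytometry from Braf-mutant melanomas of male mice and profiled by bulk RNA-seq. In the Ccr2 knockout group (5 libraries, genotype Ccr2RFP/RFP) an RFP allele replaced Ccr2 on both chromosomes. In the control group (5 libraries, genotype Ccr2RFP/+) the same allele stood beside a working copy, so no library came from mice free of RFP, although the titles call these libraries WT. Braf and Mek inhibitors had been given daily in both groups, and all tumours were labelled resistant or rebound. Neither age nor strain is stated in the labels. Nor do they tie each library to an animal of its own, so the p-values cover the spread among these libraries, whether biological or technical.

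Fibrillar collagens form the rope-like fibres that give connective tissue its strength, and in most tissues, tumours included, fibroblasts make the bulk of them. Collagens I and III are the main fibre formers, collagen V is built into the same fibres and limits their width, and collagen VI forms a separate beaded network around cells. Decorin and SPARC bind collagen, MFAP5 belongs to the microfibrils around elastic fibres, and PDGFRA is a growth factor receptor widely used to recognise fibroblasts. Macrophages are known above all for degrading and taking up collagen, while SPARC is made by many cell types.

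The libraries held 34639808 to 43360206 counts in genes. Ccr2, the altered gene, averaged 4.72 ± 1.41 CPM (read counts scaled to the library's total) in Ccr2 knockout and 119 ± 45.9 CPM in control libraries (SD, n = 5 each). On the log2 scale the fold change was -4.66 ± 0.33 (± standard error here and for every log2 fold change; edgeR adjusted p = 0.000139). Its counts ran from 147 to 261 in knockout and from 2225 to 7270 in control libraries, so each library went with its genotype label. Summed macrophage markers (12 genes, Adgre1, Csf1r and C1qa among them) stood at 30913 to 39558 CPM in knockout and 29296 to 34622 CPM in control libraries. Knockout library 3 stood apart for the matrix genes, although its Ccr2 level of 4.33 CPM lay inside the range of the other knockout libraries. Results are therefore given with it and without it.

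Promoter sequence was at hand for 6 of the 10 genes, in RefSeq windows on GRCm38.p6 from 250 bases before to 50 bases after the start of the gene. The windows of 3 genes are shown because these genes code for chains of different collagen types and were all highest in knockout library 3, although Col1a2 ran differently from the others across the control libraries. The counts had been made on another build, GRCm39, so the coordinates belong to the sequences alone. Capitals mark matches, on either strand, to 4 motifs: the CCAAT box (CCAAT), the TATA box (TATAAA), the GC box (GGGCGG) and the AP-1 site (TGANTCA). None of the motifs overlaps another in these windows. Col1a2 (chr6:4505368-4505667, plus strand) codes for the second chain of collagen I, Col3a1 (chr1:45311288-45311587, plus strand) for the only chain of collagen III, and Col6a1 (chr10:76725995-76726294, minus strand) for a chain of collagen VI.
Col1a2: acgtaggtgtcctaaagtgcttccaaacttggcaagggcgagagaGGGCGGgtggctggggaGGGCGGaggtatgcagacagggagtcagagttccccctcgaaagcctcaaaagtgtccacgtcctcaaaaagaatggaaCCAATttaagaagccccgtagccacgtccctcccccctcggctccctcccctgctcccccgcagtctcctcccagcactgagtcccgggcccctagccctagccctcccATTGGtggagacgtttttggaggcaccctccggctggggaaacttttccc
Col3a1: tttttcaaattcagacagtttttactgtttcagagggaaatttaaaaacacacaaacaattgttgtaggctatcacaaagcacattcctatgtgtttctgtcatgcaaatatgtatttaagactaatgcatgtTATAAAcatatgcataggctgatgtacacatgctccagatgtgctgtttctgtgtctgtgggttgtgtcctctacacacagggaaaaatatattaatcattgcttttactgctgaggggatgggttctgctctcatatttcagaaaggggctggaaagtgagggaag
Col6a1: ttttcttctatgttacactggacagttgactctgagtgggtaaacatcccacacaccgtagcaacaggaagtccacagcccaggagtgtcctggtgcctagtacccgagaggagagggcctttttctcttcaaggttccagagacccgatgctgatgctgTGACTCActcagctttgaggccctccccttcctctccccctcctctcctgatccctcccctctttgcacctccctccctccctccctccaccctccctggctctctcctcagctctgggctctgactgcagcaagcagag

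The windows shared no motif among those searched. That of Col1a2 held CCAAT starting 109 bases before the gene's start, its reverse complement at the start itself, and GGGCGG starting 205 and 188 bases before it. That of Col3a1 held TATAAA starting 117 bases before the start, and that of Col6a1 held TGANTCA starting 90 bases before it. Among all 32851 windows of this length, 37.4% held CCAAT, 13.6% held TATAAA, 35.7% held GGGCGG and 7.81% held TGANTCA. Of the windows not printed, that of Col5a1 held GGGCGG at 2 places, and those of Pdgfra and Sparc held none of the 4 motifs. A match describes letters only and is not a binding site.

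Across all 10 libraries, none of the matrix genes passed the threshold of 0.05 on the edgeR adjusted p, where 1.41% of all genes tested did, 0.87% as higher and 0.543% as lower in the knockout. At an unadjusted p under 0.05 there were 2, Col5a2 and Mfap5, against 15.3% of all genes. The same 2 passed with DESeq2, against 5.71% of all genes, and 0 passed with limma-voom with sample quality weights (used wherever limma-voom is named), against 3.1%. The log2 fold change, Ccr2 knockout over control, was negative in 9 of the 10 against 50.5% of all genes, and its median was -0.43 against -0.003 over all genes tested. Knockout library 3 held the highest level among the knockout libraries for all 10 genes, and the highest among all 10 libraries for 7 of them. It was at least 3 times the highest other knockout library for 7 of the 10, against 2.23% of all genes tested. The library was known to stand apart when the genes were chosen, so the 7 cannot be read as a test against that share.

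**Figure D1:**
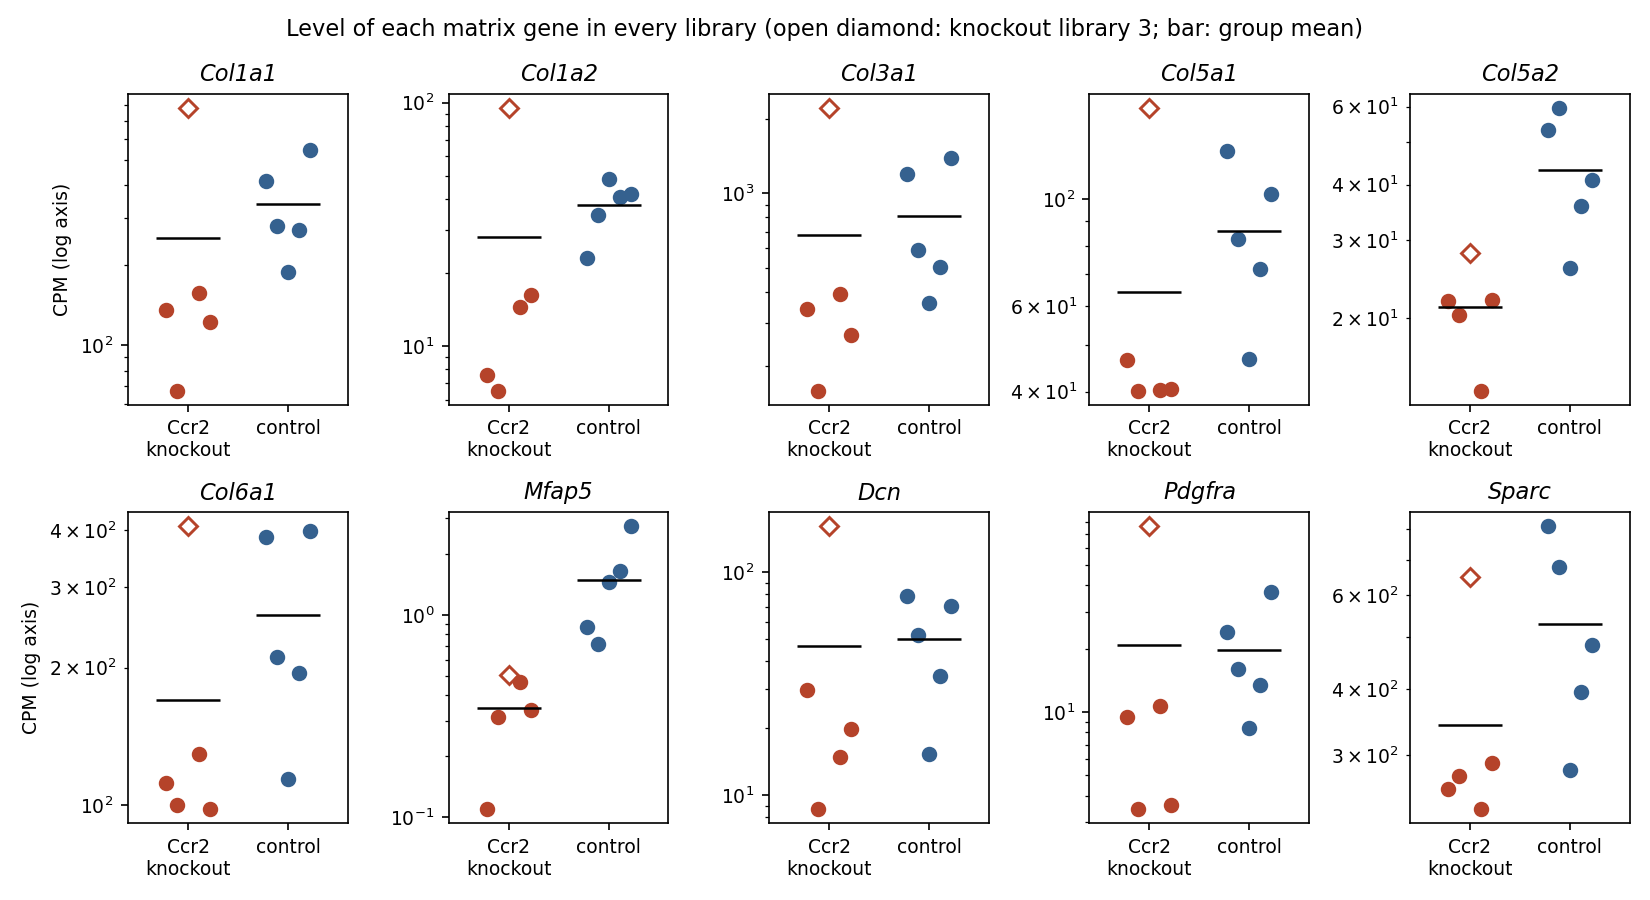
Level in CPM (log axis) of each of the 10 matrix genes in each library, Ccr2 knockout in red and control in blue, with knockout library 3 as an open diamond and group means as bars. The other 4 knockout libraries sit low, while knockout library 3 lies above every control library for 7 genes, with 784.6 CPM for Col1a1 and 2219 CPM for Col3a1.

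Collagens I and III, the fibre formers, showed a clear split within the knockout group. Col1a1, the main chain of collagen I (ENSMUSG00000001506), had 135.6, 67.3, 784.6, 156.3 and 122.2 CPM in knockout libraries 1 to 5, against 413, 280, 188, 271 and 541 CPM in control libraries 1 to 5. Knockout library 3 was above every control library and the other 4 knockout libraries were below every one. With all libraries the log2 fold change was -0.42 ± 0.61 (edgeR adjusted p = 0.779), and knockout library 3 stood 6.09 times above the median of the other knockout libraries.

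Col1a2, whose product joins that of Col1a1 in collagen I (ENSMUSG00000029661), had 7.55, 6.55, 95.3, 14.5 and 16.2 CPM in knockout libraries, against 23.0, 34.4, 48.4, 41.1 and 42.0 CPM in control libraries. Again knockout library 3 topped all libraries and the other knockout libraries lay below all controls. Control library 3, the lowest control for Col1a1, was here the highest. Over all libraries Col1a2 had a log2 fold change of -0.43 ± 0.67 (edgeR adjusted p = 0.795).

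Col3a1, the chain of collagen III (ENSMUSG00000026043), had 339.7, 159, 2219, 392 and 266 CPM in knockout libraries, against 1198, 592, 359.6, 504 and 1387.5 CPM in control libraries. Knockout library 3 exceeded the highest control, and knockout library 4 exceeded only control library 3, the lowest control. The groups overlapped with and without knockout library 3, and the log2 fold change was -0.26 ± 0.69 (edgeR adjusted p = 0.883).

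The collagen V chains differed from each other in knockout library 3. Col5a1 (ENSMUSG00000026837) had 46.5, 40.2, 155, 40.3 and 40.4 CPM in knockout libraries, against 126, 82.9, 46.8, 71.7 and 103 CPM in control libraries. The other 4 knockout libraries lay close together, just under control library 3 and far under the remaining controls. Its log2 fold change was -0.42 ± 0.42 (edgeR adjusted p = 0.665). Col5a2 (ENSMUSG00000026042) had 21.8, 20.3, 28.0, 13.7 and 21.9 CPM in knockout libraries, against 53.1, 59.7, 25.9, 35.8 and 41.0 CPM in control libraries. Here knockout library 3 was the highest of its group but only 1.33 times the median of the others, and it alone overlapped the controls, at control library 3. Col5a2 thus had a log2 fold change of -1.03 ± 0.24 (edgeR adjusted p = 0.0687). Col5a2 and Col3a1 lie next to each other on chromosome 1 with 0 protein-coding genes between them, and knockout library 3 stood 7.32 times above the median of its group for Col3a1.

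Col6a1, a chain of the beaded collagen VI (ENSMUSG00000001119), had 112, 99.9, 408, 130 and 98.1 CPM in knockout libraries, against 386, 211, 114, 195 and 399 CPM in control libraries. Knockout library 3 was slightly above control libraries 1 and 5, the highest controls, and of the other knockout libraries only library 4 exceeded a control, which was library 3. For Col6a1 the log2 fold change was -0.62 ± 0.47 (edgeR adjusted p = 0.551).

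Among the matrix proteins that are not collagens, Mfap5 separated the genotypes with knockout library 3 included, at very low levels. Mfap5 (ENSMUSG00000030116) had 0.110, 0.313, 0.507, 0.465 and 0.339 CPM in knockout libraries, against 0.876, 0.716, 1.46, 1.65 and 2.74 CPM in control libraries. These stood for 5, 13, 20, 19 and 13 counts in knockout and 33, 29, 51, 71 and 113 counts in control libraries. Every knockout library was below every control library, which held for 1 of the 10 matrix genes and for 2.02% of all genes tested, while the reverse, every knockout library above every control, held for 0 of the 10 and for 2.69% of all genes. This gave a log2 fold change of -2.10 ± 0.47 (edgeR adjusted p = 0.0613).

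Dcn, which codes for decorin (ENSMUSG00000019929), had 29.8, 8.69, 161, 14.8 and 19.8 CPM in knockout libraries, against 78.4, 52.4, 15.3, 34.3 and 70.9 CPM in control libraries. Knockout library 3 stood 9.30 times above the median of the other knockout libraries and above every control, while the lowest control lay within the span of the other knockout libraries. Its log2 fold change was -0.10 ± 0.75 (edgeR adjusted p = 0.962). Sparc (ENSMUSG00000018593) had 259, 275, 650.1, 238 and 290 CPM in knockout libraries, against 809, 679, 281, 395 and 483 CPM in control libraries. Knockout library 3 was the highest of its group but below control libraries 1 and 2, and the remaining knockout libraries lay near control library 3. Sparc had a log2 fold change of -0.63 ± 0.34 (edgeR adjusted p = 0.404).

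Pdgfra, the receptor and the only gene of the 10 with a positive fold change (ENSMUSG00000029231), had 9.51, 3.47, 76.3, 10.7 and 3.63 CPM in knockout libraries, against 23.9, 16.0, 8.43, 13.4 and 37.0 CPM in control libraries. Knockout library 3 stood 11.6 times above the median of the other knockout libraries, the widest gap of the 10 genes, and the others overlapped the controls only at control library 3. The log2 fold change was 0.07 ± 0.81 (edgeR adjusted p = 0.977), and it turned to -1.53 ± 0.49 without knockout library 3 (edgeR adjusted p = 0.142).

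Without knockout library 3, all 10 matrix genes had a negative log2 fold change, against 50.7% of all genes, with a median of -1.47. Of the 10, Col1a2 and Col5a2 fell past the threshold, where 0.932% of the 14599 genes tested in that fit fell and 1.83% passed in either direction, and 8 missed it. All 10 had an unadjusted p under 0.05, against 17.3% of all genes, in a fit that leaves out the library that was high for these same genes. Col1a2 had a log2 fold change of -1.75 ± 0.31 (edgeR adjusted p = 0.0276), and Col5a2 one of -1.15 ± 0.25 (edgeR adjusted p = 0.0480). Col1a1 followed with -1.49 and an edgeR adjusted p of 0.0536. Among the genes that missed it, Mfap5 had the largest change, -2.27 ± 0.52 (edgeR adjusted p = 0.0569), and Sparc the smallest, -0.99 ± 0.27 (edgeR adjusted p = 0.1002). Col3a1 stood at -1.48 ± 0.43, Dcn at -1.46 ± 0.48, Col6a1 at -1.25 ± 0.33 and Col5a1 at -1.04 ± 0.24, with edgeR adjusted p between 0.0636 and 0.152. Both calls depended on the control libraries as well: with knockout library 3 left out and the closely alike control libraries 1 and 2, and 3 and 4, summed, 0 of the 10 passed. With DESeq2 all 10 passed, against 7.83% of all genes, and with limma-voom Col1a1 and Col1a2 did, against 4.3%. Levels of 5 genes did not overlap between the 4 knockout and 5 control libraries, Col1a1, Col1a2, Col5a1, Col5a2 and Mfap5, against 4.01% of all genes. For the other 5 the overlap lay at control library 3, which held the lowest control level of 8 of the 10 genes.

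**Figure D2:**
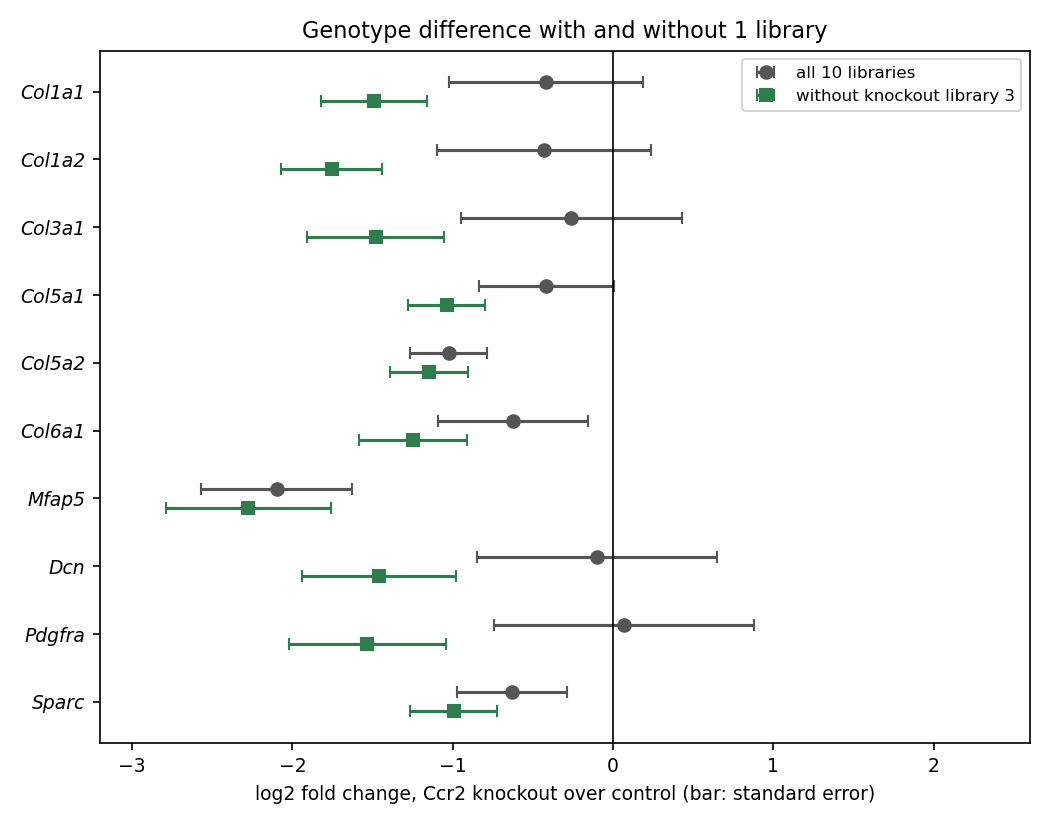
Log2 fold change of each matrix gene, Ccr2 knockout over control, with its standard error, for all 10 libraries (grey circles) and without knockout library 3 (green squares). Leaving out this library moved Col1a2 to -1.75 and Pdgfra to -1.53, while Mfap5 moved only to -2.27 and Col5a2 only to -1.15.

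Per kilobase of transcript the genes spanned a wide range of levels. Averaged over the 10 libraries, Sparc stood highest at 189 CPM per kb and Col3a1 next at 133. Col6a1 at 52.5 and Col1a1 at 49.9 CPM per kb came next, and Dcn followed at 27.6. Col5a1 stood at 8.95, Col1a2 at 6.15, Col5a2 at 4.85, Pdgfra at 2.96 and Mfap5 at 0.609 CPM per kb. The ranges over libraries of every pair of neighbours in this order overlapped.

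Ratios between collagen chains, of the same collagen or of collagens I and III, were compared within each library, on CPM per kb. The Col1a2 over Col1a1 ratio had a lowest value of 0.062, a median of 0.108 and a highest value of 0.147 in knockout libraries, against 0.062, 0.136 and 0.286 in control libraries. Control library 3 held the highest ratio, and the groups overlapped. Thus the counted level per kb of the second collagen I chain was below that of the first in every library, and by a varying factor. The Col3a1 over Col1a1 ratio was steadier, with a lowest value of 2.32, a median of 2.67 and a highest value of 3.01 in knockout libraries, against 1.98, 2.25 and 3.09 in control libraries. Knockout library 3 did not stand outside the controls in this ratio.

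The collagen V ratio set knockout library 3 apart in the other direction. Col5a2 over Col5a1 was 0.230 in that library, and the median was 0.595 and the highest value 0.688 over the 5 knockout libraries, against a range of 0.506 to 0.913 in control libraries. In collagen VI, Col6a2 over Col6a1 ran from 0.709 to 0.919 in knockout and from 0.826 to 0.945 in control libraries, the narrowest of the chain ratios. Col6a3 over Col6a1 ran from 0.061 in knockout library 2 to 0.314 in knockout library 3, against 0.137 to 0.198 in control libraries. Reads shared by near-identical copies were not counted, and reads on the strand opposite to these genes came to 0.197% to 1.03% of their counts. In GENCODE vM21, Col1a2, Col3a1 and Col5a2 each had 1 overlapping gene on the same strand, while Col1a1, Col5a1 and Col6a1 had 0. Ambiguous reads, which overlaps can give, were kept out, and their part in the ratios was not tested.

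**Figure D3:**
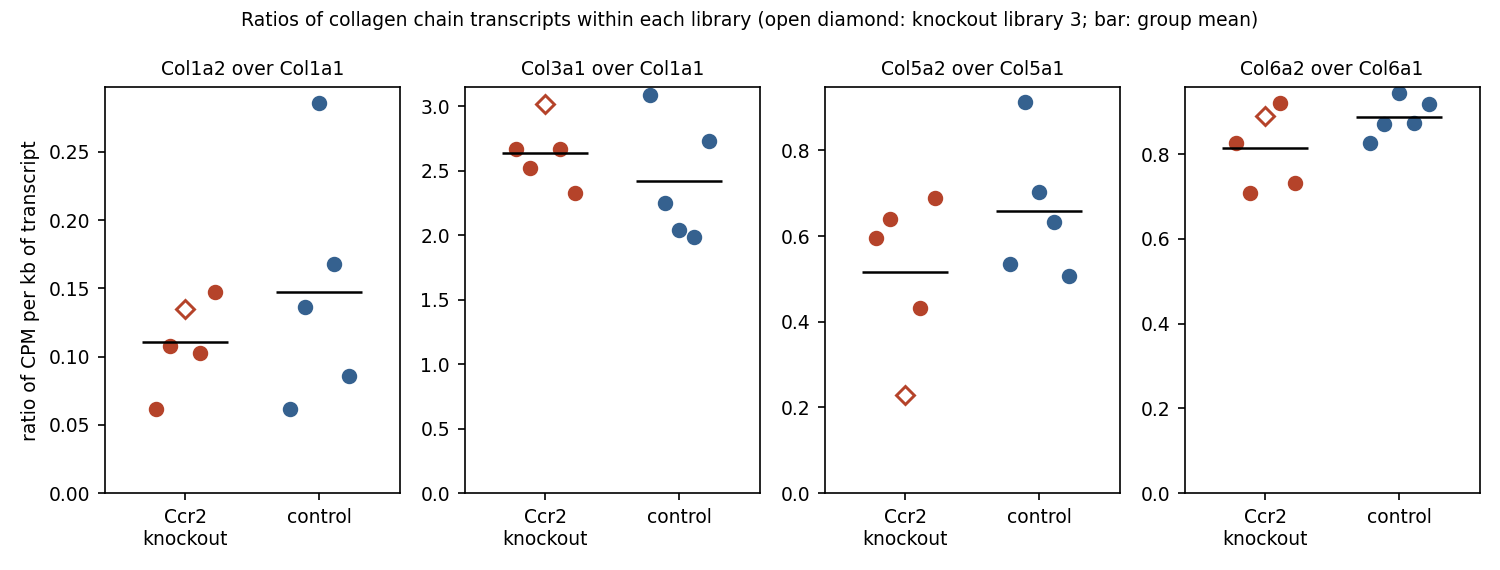
Ratio of CPM per kb between 2 collagen chain transcripts in each library, Ccr2 knockout in red and control in blue, with knockout library 3 as an open diamond and group means as bars. Knockout library 3 lies lowest for Col5a2 over Col5a1, at 0.230, and within the control range for the other ratios drawn.

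The 10 genes shared most of their pattern over libraries. The mean over the 10 of log2 CPM, each gene centred on its own mean, was -0.82, -1.29, 1.32, -0.68 and -0.85 in knockout libraries 1 to 5, against 0.82, 0.43, -0.25, 0.27 and 1.04 in control libraries 1 to 5. Col1a1 lay nearest to this shared profile, with a mean absolute difference of 0.160 log2 units per library, followed by Col6a1 at 0.209 and Col5a1 at 0.219. Mfap5 lay farthest at 0.758, then Col1a2 at 0.539, Pdgfra at 0.481 and Col5a2 at 0.469. Mfap5 and Col1a2 were above their own means in control library 3, where the shared profile was below 0. Pdgfra was raised furthest of the 10 in knockout library 3, and Col5a2 was near its mean there.

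**Figure D4:**
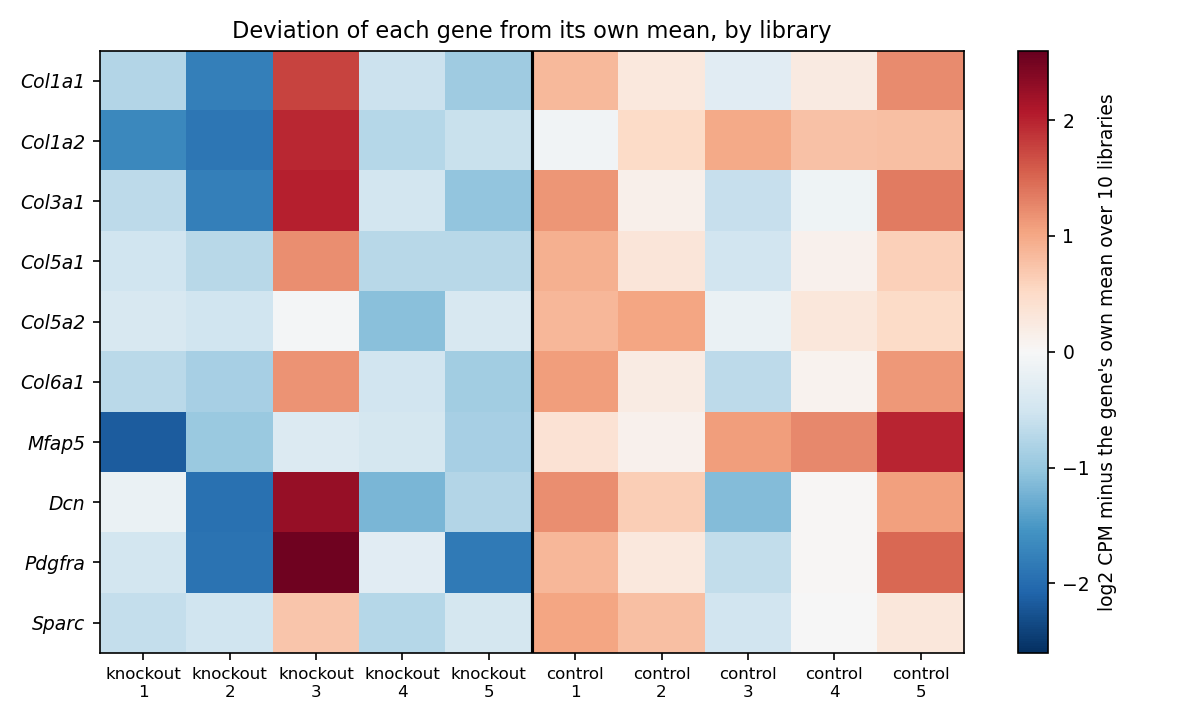
Log2 CPM of each matrix gene minus its own mean over the 10 libraries, libraries in columns and genes in rows, red above and blue below the mean. Knockout library 3 is red for most genes and near white for Col5a2, and control library 3 is blue for most genes and red for Col1a2 and Mfap5.

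Among 11684 other genes that averaged 1 CPM or more, the 8 whose centred profile was most like the shared one were Fbn1, Fhl2, Ehd2, Fstl1, Pcdh7, Bace1, Fbln5 and S100a6. Their mean absolute differences over the 10 libraries ran from 0.128 to 0.170 log2 units, against a median of 0.797 over all these genes. Fbn1, which codes for fibrillin, the core of microfibrils, had 9.07, 6.52, 32.9, 10.3 and 9.60 CPM in knockout libraries, against 24.5, 20.8, 12.1, 20.2 and 27.1 CPM in control libraries. Fbn1 had the same high knockout library 3 and low control library 3 as Col1a1, which follows from its being picked for likeness to the shared profile. Fstl1, Fbln5 and Fbn1 are secreted matrix or glycoprotein genes, while Bace1 is a membrane protease and S100a6 a calcium-binding protein.

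Other collagen genes gave 0 calls. Of 6 further fibrillar collagen genes 5 were tested, 0 passed, and 0 had an unadjusted edgeR p under 0.05 or passed with DESeq2 or limma-voom. Col11a1, a chain built into the fibres of cartilage and of some tumours, averaged 8.58 ± 6.91 CPM in knockout and 11.6 ± 3.68 CPM in control libraries (SD, n = 5 each). Of 32 collagens outside the fibrillar group 18 were tested, with 0 past the threshold by edgeR, DESeq2 or limma-voom. At an unadjusted edgeR p under 0.05 there were 0, against 15.3% of all genes. Negative fold changes numbered 17, against 50.5% of all genes. Without knockout library 3, Col8a1, a chain of a network-forming collagen, fell past the threshold, where 0.932% of all genes did. Its log2 fold change was then -1.51 ± 0.33 (edgeR adjusted p = 0.0498). Col14a1, a collagen that sits on the surface of fibres, was the single one with a positive fold change and was picked out after its values were seen. It had 60.9, 235, 104, 182 and 250 CPM in knockout libraries, against 48.7, 58.3, 145, 119 and 104 CPM in control libraries, with a log2 fold change of 0.81 ± 0.41 (edgeR adjusted p = 0.374). Knockout libraries 2, 4 and 5 were above all controls, and libraries 1 and 3 were not.

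Enzymes that modify, fold and cross-link collagen gave 0 calls by edgeR, DESeq2 or limma-voom among 23 tested of 25. At an unadjusted edgeR p under 0.05 there were 4, against 15.3% of all genes. P4ha2, a prolyl hydroxylase subunit, averaged 30.1 ± 13.8 CPM in knockout and 15.1 ± 5.87 CPM in control libraries (SD, n = 5 each; edgeR adjusted p = 0.227). Serpinh1, the collagen chaperone HSP47, averaged 90.1 ± 45.4 CPM in knockout and 154.6 ± 54.8 CPM in control libraries (edgeR adjusted p = 0.301). Their fold changes thus had opposite signs, and neither passed. Without knockout library 3, Loxl3, a cross-linking oxidase, fell past the threshold, where 0.932% of all genes did. Its log2 fold change was then -0.76 ± 0.15 (edgeR adjusted p = 0.0394).

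Small leucine-rich proteoglycans, the family of decorin, gave 0 calls by edgeR among 9 tested of 10. At an unadjusted edgeR p under 0.05 there was 1, Ogn, against 15.3% of all genes. DESeq2 called Ogn, against 5.71% of all genes, and limma-voom called 0, against 3.1%. Ogn, which codes for osteoglycin, averaged 1.401 ± 1.17 CPM in knockout and 4.08 ± 1.604 CPM in control libraries (SD, n = 5 each), with a log2 fold change of -1.54 ± 0.49 (edgeR adjusted p = 0.160). Without knockout library 3 it passed, with -2.21 ± 0.36 (edgeR adjusted p = 0.0173), where 0.932% of all genes fell past the threshold. Lum, which codes for lumican, averaged 17.5 ± 17.4 CPM in knockout and 33.6 ± 23.1 CPM in control libraries (edgeR adjusted p = 0.510).

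Of 15 microfibril and elastic fibre genes, all tested, 1 fell past the threshold, where 0.543% of all genes did. Negative fold changes numbered 13, against 50.5% of all genes. Mfap2, a microfibril protein related to MFAP5, had 1.98, 1.54, 3.04, 2.10 and 1.93 CPM in knockout libraries, against 7.75, 3.78, 3.71, 4.61 and 8.36 CPM in control libraries. Every knockout library lay below every control, knockout library 3 included. Its log2 fold change was -1.41 ± 0.29 (edgeR adjusted p = 0.0448). It passed in 10 of 24 alternative fits. The call ended when any library other than knockout library 3 was left out, with edgeR adjusted p from 0.0533 without control library 3 to 0.110 without control library 1, while the fold change stayed between -1.53 and -1.22 in those 9 fits. It also ended with close control libraries summed (edgeR adjusted p = 0.127), with the title number as a block (0.148), without knockout libraries 4 and 5 (0.230) and with no filter on low counts (0.0565). Eln, which codes for elastin, averaged 3.13 ± 1.71 CPM in knockout and 10.6 ± 6.24 CPM in control libraries (SD, n = 5 each; edgeR adjusted p = 0.115). DESeq2 called Mfap2, Eln and Efemp1 as lower, against 5.71% of all genes, and limma-voom called Mfap2 alone, against 3.1%. Without knockout library 3, Mfap2 and Fbn1 fell past the threshold by edgeR, where 0.932% of all genes did. Fbn1 then had an edgeR adjusted p of 0.0325, in a fit without the library that was its highest of the knockout group.

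Of 24 matricellular and adhesive glycoprotein genes, 22 were tested and 0 passed by edgeR. At an unadjusted edgeR p under 0.05 there were 5, against 15.3% of all genes. DESeq2 called Thbs1 and Lama2 as lower and Nid2 as higher, against 5.71% of all genes called. Thbs1, Vcan and Ccn2 were called as lower by limma-voom, against 3.1% of all genes called. Thbs1, which codes for thrombospondin 1, a protein that macrophages and platelets also make, had 198, 301, 466, 63.0 and 64.6 CPM in knockout libraries, against 647, 932, 710, 801 and 2079 CPM in control libraries. The groups did not overlap, and knockout libraries 4 and 5 were lowest. The log2 fold change was -2.24 ± 0.58 (edgeR adjusted p = 0.0947). Without knockout library 3, 5 genes fell past the threshold, Tnc, Thbs1, Vcan, Fstl1 and Ccn2, where 0.932% of all genes did. That fit leaves out the library that was the highest of its group for each of them. The log2 fold change of Thbs1 was then -2.72 ± 0.57 (edgeR adjusted p = 0.0437). Nid2, a basement membrane protein, ran the other way with 61.5 ± 28.9 CPM in knockout and 29.5 ± 6.08 CPM in control libraries (SD, n = 5 each; edgeR adjusted p = 0.113, DESeq2 adjusted p = 0.0123).

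Ligands and receptors of the PDGF and TGF-beta pathways, through which fibroblasts are stimulated, included the only genes on the pathway lists that rose by edgeR, while DESeq2 also called Nid2. Of 11, all tested, 2 rose and 0 fell in knockout libraries, where 0.87% of all genes rose and 0.543% fell. Pdgfc, a ligand of PDGFRA, had 69.1, 76.6, 68.9, 75.1 and 69.8 CPM in knockout libraries, against 32.8, 40.1, 43.6, 43.3 and 58.0 CPM in control libraries. Every knockout library was above every control, and knockout library 3 stood with the rest of its group. The log2 fold change was 0.72 ± 0.13 (edgeR adjusted p = 0.0260). Tgfbr2, the TGF-beta receptor that binds the ligand first, had 612, 565, 593, 685 and 772 CPM in knockout libraries, against 442, 435, 412, 456 and 439.96 CPM in control libraries. Its groups did not overlap either, and the log2 fold change was 0.56 ± 0.10 (edgeR adjusted p = 0.0214).

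Both calls were lost in some fits with 1 library fewer. That of Pdgfc ended without knockout library 4 or 5 or control library 1, 2, 3 or 4, with edgeR adjusted p of 0.0615, 0.0591, 0.0508, 0.0790, 0.0603 and 0.0735 in that order. That of Tgfbr2 ended without control library 1, 2, 3 or 4, with edgeR adjusted p of 0.0569, 0.0672, 0.0563 and 0.0552. Both remained past the threshold without knockout library 3. Both calls also ended with close control libraries summed (edgeR adjusted p = 0.177 for Pdgfc and 0.171 for Tgfbr2), with the title number as a block (0.0880 and 0.1001) and without knockout libraries 4 and 5 (0.133 and 0.0881). The directions did not change in any of these fits.

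Genes for collagen receptors and collagen uptake gave 0 calls by edgeR, DESeq2 or limma-voom among 11 tested. At an unadjusted edgeR p under 0.05 there was 1, against 15.3% of all genes. That gene, Itga1, the alpha chain of a collagen-binding integrin, averaged 5.05 ± 1.51 CPM in knockout and 10.5 ± 6.64 CPM in control libraries (SD, n = 5 each; edgeR adjusted p = 0.300). Ctsk, which codes for the collagen-degrading cathepsin K, averaged 9.49 ± 8.03 CPM in knockout and 30.3 ± 47.8 CPM in control libraries (edgeR adjusted p = 0.410). Its SD in the control group exceeded its mean, and without control library 5 its log2 fold change, -1.67 with all libraries, was 0.0905.

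Most markers of fibroblasts other than the 10 genes were also highest in knockout library 3 within its group, 12 of the 14 tested, all but Thy1 and Fap. The 16 markers, among them Pdgfrb, Prrx1, Mmp2 and Lum, summed to 412 CPM in knockout library 3 and to between 98.7 and 120 CPM in the other knockout libraries, against 125 to 363 CPM in control libraries. In this sum knockout library 3 was the highest and control library 3 the lowest of its group. The sum of the 10 genes was 4578 CPM in knockout library 3 and 681 to 1010 CPM in the others, against 1089 to 3111 CPM in control libraries. Of the 16, Tcf21 was at 0 in every library, 14 were tested, and 0 passed by edgeR, DESeq2 or limma-voom. At an unadjusted edgeR p under 0.05 there were 0 with all libraries, against 15.3% of all genes. Without knockout library 3 there were 11, against 17.3%, in a fit that leaves out the library that was high for most of these markers. Knockout library 3 was at least 3 times the highest other knockout library for 8 of the 14 tested, against 2.23% of all genes tested. The list was chosen with that library known to stand apart, so the 8 cannot be read as a test against that share. The part of fibroblast RNA in the results above was not tested, and in bulk samples fewer cells of a type and less RNA per cell cannot be told apart.

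Sums of endothelial and keratinocyte markers also had knockout library 3 highest and control library 3 lowest within their groups. Control library 3 was the lowest control for the pericyte and smooth muscle, T and NK cell, neutrophil and macrophage sums too. It was not the lowest for the melanocyte and melanoma or the Schwann cell sum. In no marker list except that of fibroblasts was knockout library 3 the highest of all 10 libraries. Pericyte and smooth muscle markers (10 genes) summed to 44.5 to 130 CPM in knockout and 27.7 to 76.7 CPM in control libraries, with the highest sum in knockout library 1. Cspg4, which other cell types also express, made up most of that sum, with 37.1 to 123 CPM in knockout and 13.4 to 31.1 CPM in control libraries (edgeR adjusted p = 0.0562). Tagln, a smooth muscle protein, fell, with a log2 fold change of -2.32 (edgeR adjusted p = 0.0372) that was 0.46 with unstranded counts. Des and Acta2, for desmin and smooth muscle actin, had log2 fold changes of -2.30 and -1.34 and did not pass by edgeR (edgeR adjusted p = 0.121 and 0.202). DESeq2 called Tagln and Des as lower and Cspg4 as higher, where it called 5.71% of all genes. Tagln and Cspg4 were also called by limma-voom, against 3.1% of all genes. Without knockout library 3, Acta2 passed by edgeR too (edgeR adjusted p = 0.0470), against 1.83% of all genes. Endothelial markers (10 genes) summed to 32.2 CPM in knockout library 3 and 19.7 to 27.3 CPM in the other knockout libraries, against 23.5 to 45.2 CPM in control libraries. Of the 8 tested, 0 passed by edgeR with all libraries, while DESeq2 called Flt1 as lower, against 5.71% of all genes. Without knockout library 3, Flt1 fell past the threshold by edgeR too (edgeR adjusted p = 0.0126), where 0.932% of all genes did. Keratinocyte markers (6 genes) summed to 4.16 CPM in knockout library 3 and 1.08 to 2.44 CPM in the others, against 1.17 to 10.2 CPM in control libraries, with Krt1 and Trp63 at no more than 30 counts over the 10 libraries. Neutrophil markers (10 genes) summed to 115 to 213 CPM in knockout and 162 to 550 CPM in control libraries, and Schwann cell markers (5 genes) to 29.0 to 71.1 CPM in knockout and 10.2 to 118 CPM in control libraries. Of the 8 neutrophil markers tested, 0 passed by edgeR, while DESeq2 called Csf3r, Mmp8 and Ltf as lower, against 5.71% of all genes.

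Melanocyte and melanoma markers (10 genes) summed to 15.9 to 36.6 CPM in knockout and 4.83 to 43.6 CPM in control libraries, with knockout library 3 the lowest of its group. Sox10 made up most of that sum, and 6 of the 10, Mlana and Tyr among them, had no more than 30 counts over the 10 libraries. Of the 3 tested, 1 rose past the threshold, where 0.87% of all genes did. This was Trpm1, at 1.27 ± 0.36 CPM in knockout and 0.326 ± 0.139 CPM in control libraries (SD, n = 5 each). Its log2 fold change was 1.96 ± 0.36 (edgeR adjusted p = 0.0270), and DESeq2 and limma-voom called it too. T and NK cell markers (9 genes) summed to 88.7 to 238 CPM in knockout and 78.6 to 195 CPM in control libraries, with Cd4, which macrophages can also express, as the most abundant. Of the 8 tested, 1 rose past the threshold, where 0.87% of all genes did. This was Cd4, with a log2 fold change of 1.13 ± 0.20 (edgeR adjusted p = 0.0223). The other 7 had negative fold changes, against 50.5% of all genes, and none of these passed. Of the 12 macrophage markers, all tested, 1 rose past the threshold, Cd68, where 0.87% of all genes did. Its log2 fold change was 0.49 ± 0.09 (edgeR adjusted p = 0.0260), and DESeq2 and limma-voom called it too. The part of any of these cell types in the levels of the matrix genes was not tested.

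**Figure D5:**
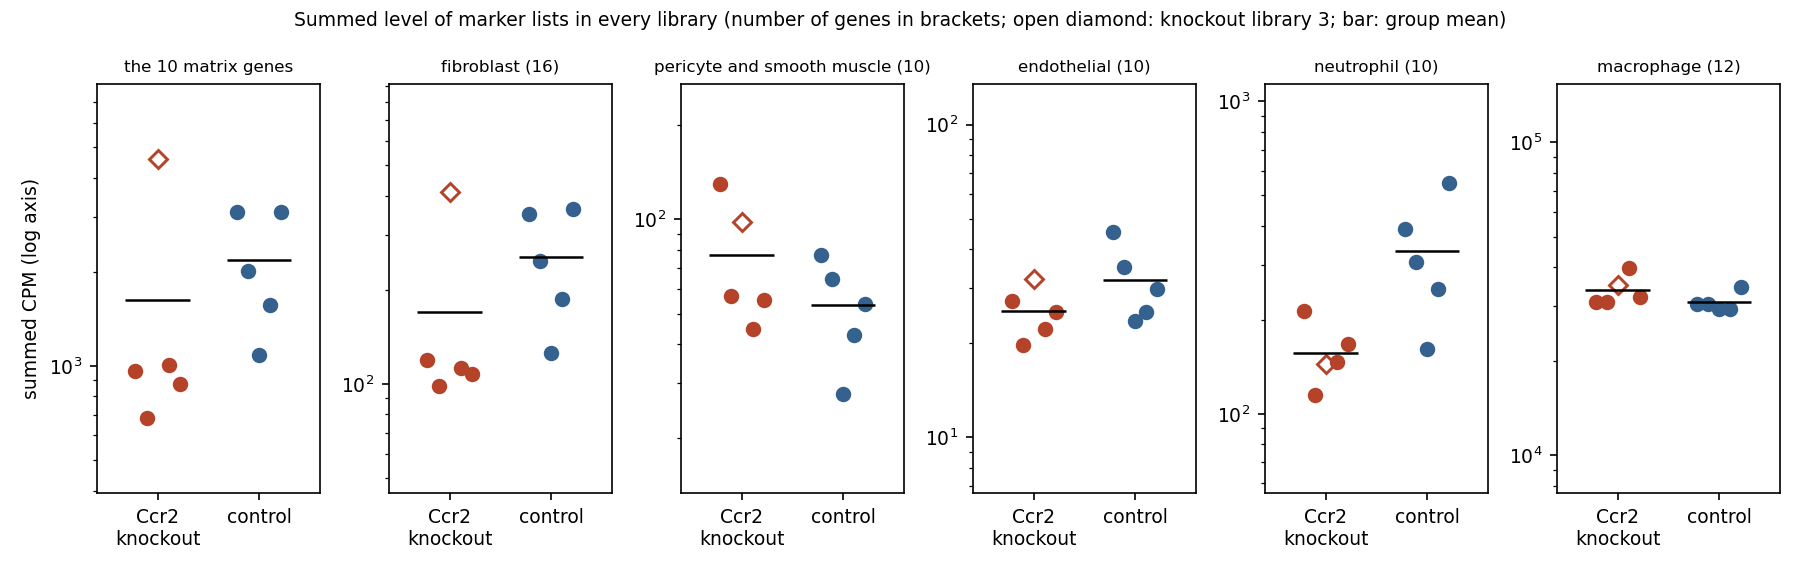
Summed CPM (log axis) of the 10 matrix genes and of 5 marker lists in each library, Ccr2 knockout in red and control in blue, with knockout library 3 as an open diamond and group means as bars. Knockout library 3 is the highest library for the matrix genes, at 4578 CPM, and for fibroblast markers, at 412 CPM, but not for the other 4 lists.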

How the data were processed

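The authors deposited, for each library, whole-number counts of reads on every gene, both unstranded and by strand. STAR was the aligner and GRCm39 the build, per the submitters' processing notes. Which STAR release and which gene models were used were not given in the sources used here. Libraries were poly(A) enriched and directional, per the labels' protocols. The reverse-strand column was used, since 96.2% to 96.5% of strand-assigned counts fell in it. Unmapped (6.87% to 8.07% of reads), ambiguous (1.83% to 2.10%) and unassigned reads (3.63% to 5.68%) were kept out, and multimapping reads were listed as 0, so reads shared by near-identical copies were not seen. The 10 unnamed columns of a combined table could not be matched to samples and were left out. Symbols matched 52083 of 55359 identifiers.

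Counts were tested by the quasi-likelihood F-test of edgeR 4.0.16 (R 4.3.3) over all 10 libraries with genotype as the only term, after filterByExpr (minimum count 10) and TMM scaling. P-values were Benjamini-Hochberg adjusted over all genes tested, with a threshold of 0.05, and the standard error is the log2 fold change divided by the square root of F. CPM used TMM-scaled library sizes, and CPM per kb used the longest principal transcript of each gene in GENCODE vM21. Likeness of profiles was measured on log2 CPM (prior count 2). The gene test was checked on simulated counts. Alternatives used DESeq2 1.42.0, limma 3.58.1 (voom with sample quality weights) and other scalings, filters, strand columns, dispersions, thresholds and library sets. Leaving out knockout library 3 together with another choice was added after seeing the data. Of each gene list the up to 3 genes with the smallest p and any past the threshold could be named, and Col14a1, Tagln, Des and the genes called by another tool or without knockout library 3 were chosen after their values were seen. The 10 genes and all lists were chosen with earlier results of these data known. In control libraries 3 and 4, and 1 and 2, counts were closer than in any other pair, with a median chi-square per gene of 2.89 and 3.00. Sampling noise alone gives 0.455, and the next closest pair, knockout library 2 and control library 3, stood at 6.97. A value above sampling noise cannot tell separate animals from repeat preparations of the same animal. All 10 libraries were kept as separate samples, and fits with these control pairs summed are given beside them. Title numbers were not used as pairs in the main fit, and whether they pair the samples was not settled (see the closing section). Figures were drawn with matplotlib 3.10.9.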

Additional observations from a re-analysis of the deposited data

Results flagged for a closer look

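Within a group of 5 libraries, a level was picked out where its gap to the nearest other library took up an unusually large part of the group's range, which chance alone gives in about 1 in 20 groups. Of 40 groups so examined, 11 had such a library, and 9 of the 11 were knockout library 3. In that library Col1a1 stood at 784.6 CPM, Col1a2 at 95.27, Col3a1 at 2219, Col5a1 at 154.8, Col6a1 at 408.4, Dcn at 161.1, Pdgfra at 76.31 and Sparc at 650.1 CPM. The fibroblast marker sum there was 411.9 CPM. These 9 levels come from genes that share a pattern, and the library was known to stand apart when they were chosen, so their number cannot be read against that rate. The gap was 0.862 to 0.945 of the range of the knockout group for these 9. The other flags were the keratinocyte marker sum in control library 1, at 10.16 CPM, and the macrophage marker sum in control library 5, at 34620 CPM.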

How the results depend on the processing

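Over 24 alternatives Ccr2 stayed past the threshold with log2 fold changes from -4.83 to -4.30. The count of genes called, 203 with all libraries, was 820 with DESeq2, 446 with limma-voom with sample quality weights (a change of tool and of weights at once, here and below), 444 at an adjusted p of 0.1, 50 without knockout libraries 4 and 5, 29 with close control libraries summed, and 62 to 267 with 1 library left out. With knockout library 3 left out in addition, it was 61 with close controls summed, 628 with limma-voom and 1142 with DESeq2. Matrix genes called, 0 with all libraries, were 2 with DESeq2 (Col5a2, Mfap5), 2 at an adjusted p of 0.1 (the same), 0 to 2 with 1 library left out (Col5a2 alone without control library 3), and 2 with limma-voom and 10 with DESeq2 once knockout library 3 was left out. With the title number as a replicate block, 55 genes and 0 matrix genes were called and Pdgfra stood at -1.02. Correlations of same-numbered libraries ran from -0.53 to 0.34, and only for number 1 were the 2 libraries each other's best match. Such correlations cannot tell whether the numbers pair the samples. Signs turned for Pdgfra (-1.09 with limma-voom, -0.13 with close controls summed, -1.73, -1.77 and -1.52 without knockout library 3 under summed controls, limma-voom and DESeq2, and -1.53 to 0.43 with 1 library left out), Col3a1 (0.17 without knockout libraries 4 and 5, -1.48 to 0.031 with 1 left out), Dcn (0.41, and -1.46 to 0.17) and Ctsk (-2.31 to 0.0905 with 1 left out); the causes were not tested. Median log2 fold changes of all genes were -0.003, 0.003 and 0.02 under TMM, DESeq2 size factors and library size only. Mfap5 was not fitted under a filter of 1 CPM in 5 libraries. Depth limits Mfap5 most, at 5 to 20 counts in knockout libraries.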
